A study of Mus musculus with 6 samples.

Results

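The Schlafen family is a set of mouse genes that lie mostly in 1 cluster on chromosome 11, and the array values of 6 of its members are described here in colorectal tumours grown at 2 sites. The members were named as a family: Slfn1, Slfn2, Slfn3, Slfn4, Slfn5, Slfn8 and Slfn9, 7 genes in all. A gene's value was taken from the probe set annotated to that symbol and no other, and the brightest such probe set on average was to be kept where there were several. Of the 7 members, 6 had such a probe set, each exactly 1, among 22180 genes with a value. Slfn9 had none: its probe set is annotated to Slfn8 as well, so no value is given for Slfn9 itself. The family was taken up with Slfn4 already known to differ between the sites in these data, so the differences of the members are given as descriptions and no p-value is read as support for them.

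Total RNA came from 6 mouse colorectal tumours: in 3 mice the cancer cells had been placed in white adipose tissue, the main store of fat, and in 3 in a tissue that is not fat. Each tumour came from its own mouse, was taken at 1 to 1.5 cm3 and was hybridised to 1 whole-transcript array. Both groups are otherwise labelled alike, and the cancer line, the mouse strain, the age of the animals and the exact site of the non-adipose injections are not stated in the labels. Signals are on the log2 scale, on which a step of 1 is a 2-fold change. A bulk tumour mixes cancer, immune and stromal cells, so fewer cells of a type and less RNA per cell cannot be told apart.

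Schlafen proteins have been studied mostly in immune cells, and many of their genes are switched on by interferons. They are grouped by length: a short form (Slfn1 and Slfn2), an intermediate form (Slfn3 and Slfn4) and a long form that adds a helicase-like domain (Slfn5, Slfn8 and Slfn9). Several of them bind or cut transfer RNA, and members of the family restrain the growth of lymphocytes, mark myeloid cells or limit viral protein synthesis.

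The promoters of the members were searched for short stretches of letters. RefSeq's mouse promoter table (GRCm38.p6) held all 7 members, with 250 bases before and 50 after the start of the gene. Slfn8 had 2 entries, of which the first listed was used. The 10 letters GAAANNGAAA, the core of the interferon-stimulated response element that interferon-activated transcription factors read, were searched on both strands. They stood in the promoters of the 3 long-form members and in none of the 4 other members. Of all 32851 promoters of this length, 3.44% held them. The promoters of Slfn8 and Slfn9 are near copies, so their matches are not separate observations. No match was recorded for Slfn14, a long-form gene outside the list. In Slfn8 and Slfn9 the match reads on the opposite strand and so appears as its reverse complement. Capitals mark the match in these stretches, which are shown because these letters were found in the long-form members and in no other member:

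Slfn5 (chr11:82951922-82951981, plus strand): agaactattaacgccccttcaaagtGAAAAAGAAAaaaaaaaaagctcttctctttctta
Slfn8 (chr11:83020824-83020883, minus strand): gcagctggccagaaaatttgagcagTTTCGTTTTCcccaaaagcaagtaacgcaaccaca
Slfn9 (chr11:82991841-82991900, minus strand): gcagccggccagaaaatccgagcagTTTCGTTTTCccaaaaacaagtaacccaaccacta

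The 4 short and intermediate genes shared another stretch, ACTTCCTGG, which holds the core letters that ETS-family factors read on the opposite strand. It was chosen after these same promoters had been read, so its split between the forms is a description and no support for a grouping. It stood in all 4 of these promoters, in none of the 3 long-form promoters and in 0.843% of all promoters. Its first base lay 74, 55, 42 and 73 bases before the start in Slfn1, Slfn2, Slfn3 and Slfn4. The next letters were alike in Slfn1 and Slfn4. Capitals mark the shared stretch:

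Slfn1 (chr11:83116721-83116779, plus strand): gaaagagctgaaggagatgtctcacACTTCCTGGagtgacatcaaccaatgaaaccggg
Slfn2 (chr11:83065032-83065090, plus strand): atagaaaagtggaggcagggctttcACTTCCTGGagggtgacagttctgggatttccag
Slfn3 (chr11:83191263-83191321, plus strand): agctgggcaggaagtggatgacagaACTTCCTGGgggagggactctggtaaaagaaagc
Slfn4 (chr11:83175088-83175146, plus strand): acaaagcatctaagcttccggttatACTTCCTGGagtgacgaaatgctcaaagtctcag

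The letters TTCNNNGAA, the gamma-activated sequence read by STAT factors, were in none of the 7 member promoters and in 8.30% of all promoters. No match of 1 motif overlapped a match of another in these promoters. A match describes letters and shows no binding, and a missing match says only that these letters are not in this window. The promoters of Slfn8 and Slfn9 were near copies, identical at 252 of the 288 bases that could be aligned, or 80.8% of the columns of the alignment. Every other pair of members reached between 43.9% and 53.1% of the columns. Probe and transcript sequences were not compared here.

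Across the 6 measured members the mean was lower in the white adipose tumours in every case, most in Slfn4. In Slfn1 and Slfn3 it was lower by less than the standard error, and the sign turned when 1 of several arrays was left out. The median difference over the 6 members was -0.24 on the log2 scale, beside -0.00043 over all genes, and 50.3% of all genes had a lower mean in white adipose tumours. No member passed the threshold: limma, fitted over all 22180 genes, called 0 genes at an adjusted p of 0.05, which is 0.00% of them, and 841 genes, or 3.79%, were at an unadjusted p under 0.05. The smallest adjusted p of any gene was 0.936, shared by Slfn2, Slfn4, Slfn5 and Slfn8. Only for Slfn4, 1 of the 6 members, were the 2 groups of arrays apart, beside 3.97% of all genes whose white adipose arrays all lay lower. As the family was chosen with this contrast known, nothing is read from that count.

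Slfn4, an intermediate-form gene known from monocytes, neutrophils and suppressor-type myeloid cells, had the widest spread of the family. Its log2 signal was 7.83, 6.53 and 7.28 in non-adipose replicates 1, 2 and 3 and 5.66, 6.19 and 6.47 in white adipose replicates 1, 2 and 3. The groups did not overlap, but the gap between the lowest non-adipose array, replicate 2, and the highest white adipose array, replicate 3, was 0.066. The means were 7.22 ± 0.65 (SD, n = 3) and 6.11 ± 0.41 (SD, n = 3), which is 2.16-fold lower in white adipose tumours. The log2 difference was -1.11 (SE 0.36), with a 95% confidence interval from -1.99 to -0.23. Of all 22180 genes, 9 had a more negative difference. Leaving out 1 array moved the Slfn4 difference to between -1.45, without non-adipose replicate 2, and -0.80, without non-adipose replicate 1. The 6 arrays spanned 2.17 on the log2 scale, a range wider than that of 99.4% of all genes.

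Slfn3, the other intermediate-form gene and the next member along the chromosome, is known from studies of gut epithelial differentiation. It read 7.08, 6.89 and 6.51 in non-adipose replicates 1, 2 and 3 and 6.48, 6.85 and 7.03 in white adipose replicates 1, 2 and 3. Each group held a low and a high array, and the groups overlapped almost entirely. The Slfn3 difference was -0.038 (SE 0.20), and it turned to 0.089 when non-adipose replicate 1 was left out and to 0.12 when white adipose replicate 1 was.

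**Figure D1:**
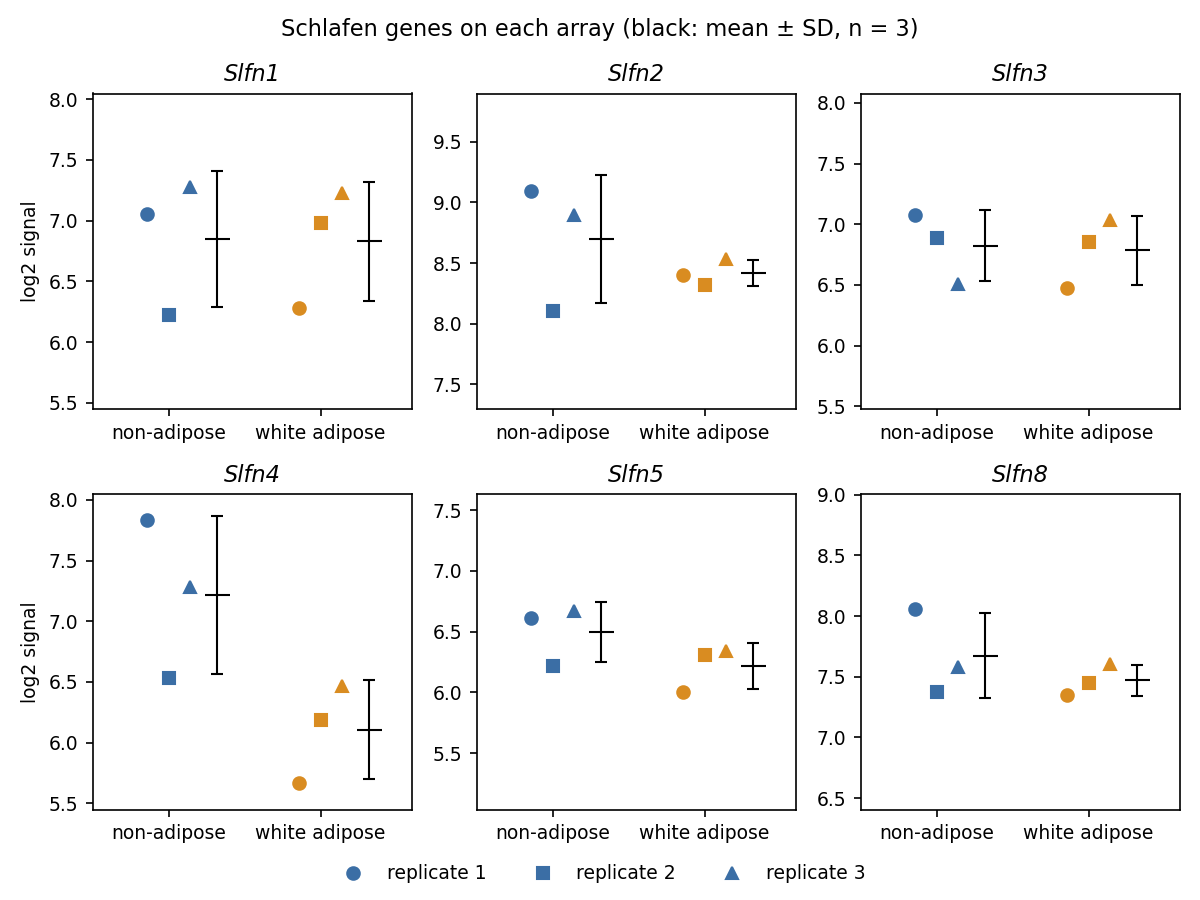
Log2 signal of the 6 measured Schlafen genes on each array (vertical axis, every panel spanning the same number of log2 units), with non-adipose arrays in blue, white adipose arrays in orange, the marker shape giving the replicate number and the black bar the mean ± SD (n = 3). In Slfn4 the 3 white adipose arrays, at 5.66 to 6.47, lie below all 3 non-adipose arrays, at 6.53 to 7.83, whereas the groups overlap in the other 5 genes.

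The short-form genes are best known from T cells: Slfn2 keeps resting T cells quiescent and alive, and Slfn1 slows thymocyte growth. The Slfn2 signal was 9.09, 8.10 and 8.90 in non-adipose replicates 1, 2 and 3 and 8.40, 8.32 and 8.53 in white adipose replicates 1, 2 and 3. The white adipose arrays were close together, within 0.21, and lay inside the span of the non-adipose arrays, which was 0.99. The means were 8.70 ± 0.52 (SD, n = 3) and 8.42 ± 0.11 (SD, n = 3), a difference of -0.28 (SE 0.25). This value rested on the non-adipose arrays, since it was -0.084 without replicate 1 and -0.58 without replicate 2 of that group.

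Slfn1 showed no common shift between the sites. Its signal was 7.06, 6.22 and 7.28 in non-adipose replicates 1, 2 and 3 and 6.28, 6.98 and 7.23 in white adipose replicates 1, 2 and 3. Non-adipose replicate 2 and white adipose replicate 1 were both low, and the other 4 arrays were together at 6.98 or above. The difference was -0.020 (SE 0.35), and its interval from -0.87 to 0.83 leaves room for a change of either sign. Dropping non-adipose replicate 2 gave -0.34, and dropping white adipose replicate 1 gave 0.25.

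The long-form genes differed less than Slfn4 in size and were lowest within each group at the same arrays as Slfn4, non-adipose replicate 2 and white adipose replicate 1. Slfn5, a nuclear protein that acts on interferon-driven transcription, read 6.62, 6.22 and 6.67 in non-adipose replicates 1, 2 and 3 and 6.001, 6.31 and 6.34 in white adipose replicates 1, 2 and 3. Non-adipose replicate 2 lay among the white adipose arrays, and the other 2 non-adipose arrays lay above all of them. The Slfn5 difference was -0.28 (SE 0.15), and it moved to -0.42 when non-adipose replicate 2 was dropped and to -0.17 when white adipose replicate 1 was.

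Slfn8, whose product carries the helicase-like domain, read 8.06, 7.38 and 7.58 in non-adipose replicates 1, 2 and 3 and 7.35, 7.45 and 7.60 in white adipose replicates 1, 2 and 3. Non-adipose replicate 1 lay above the other 5 arrays, which were within 7.35 to 7.60. The Slfn8 difference was -0.20 (SE 0.18), and without that array it was -0.011. The probe set annotated to both Slfn8 and Slfn9, which is assigned to neither, read 9.18, 8.86 and 8.66 in non-adipose replicates 1, 2 and 3 and 8.51, 8.52 and 8.68 in white adipose replicates 1, 2 and 3. These groups overlapped by a narrow margin, non-adipose replicate 3 being below white adipose replicate 3, and their means differed by -0.33. This probe set was not part of the fit and has no test.

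**Figure D2:**
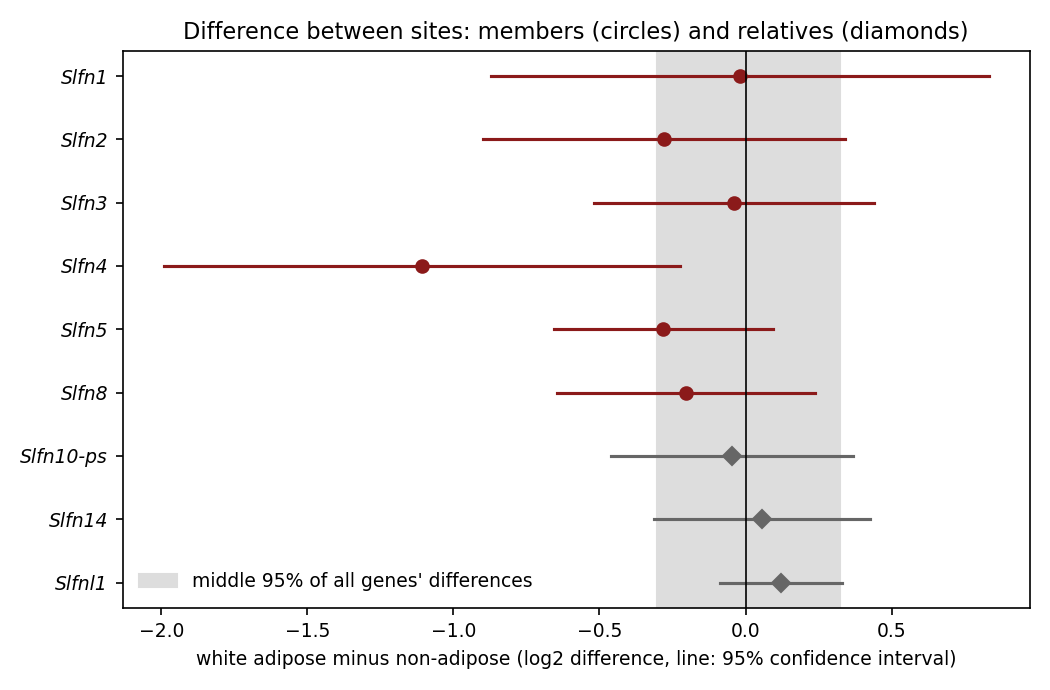
Log2 difference of white adipose minus non-adipose (horizontal axis) for the 6 measured members (red circles) and 3 relatives (grey diamonds), with limma's 95% confidence interval as a line and the middle 95% of all genes' differences, from -0.30 to 0.32, as a grey band. Slfn4 at -1.11 is the 1 member outside the band.

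The relatives of the family outside the list stayed near 0. The pseudogene Slfn10-ps, which lies between Slfn8 and Slfn2, differed by -0.046 (SE 0.17). Slfn14, a long-form gene known from platelet and red cell precursors, differed by 0.056 (SE 0.15), and its mean signal was at percentile 16.3 of all genes, so its values may be background. Slfnl1, a Schlafen-like gene on another chromosome, differed by 0.12 (SE 0.086). Groups overlapped in all 3.

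Along the chromosome the order of the family is Slfn5, Slfn9, Slfn8, Slfn10-ps, Slfn2, Slfn1, Slfn4 and Slfn3, with Slfn14 beyond the next few genes. Slfn4 thus lies between Slfn1 and Slfn3, whose differences were -0.020 and -0.038. On the far side of Slfn5 the nearest 5 genes with a value were Unc45bos at 0.072 (SE 0.17), Unc45b, a chaperone gene for muscle myosin, at -0.0044 (SE 0.065), Nle1 at -0.21 (SE 0.15), Fndc8 at -0.054 (SE 0.093) and Rad51d, a DNA repair gene, at -0.0082 (SE 0.059). The groups overlapped in all 5.

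The members shared part of their pattern over single arrays, and not along the line of the injection site alone. Within the non-adipose group, replicate 2 was lowest in 5 of the 6 members, Slfn3 being the exception, beside 30.0% of all genes. Within the white adipose group, replicate 1 was lowest in 5 of the 6 members, Slfn2 being the exception, beside 43.3% of all genes. Non-adipose replicate 1 was the highest of all 6 arrays in Slfn2, Slfn3, Slfn4 and Slfn8, beside 16.2% of all genes. Over the 6 arrays, which include the difference between the sites, Pearson's r was 0.92 between Slfn4 and Slfn5, 0.86 between Slfn4 and Slfn8 and 0.86 between Slfn2 and Slfn8. Slfn3 was less like the others, with r from 0.085, against Slfn2, to 0.56, against Slfn8. For Slfn1, r ran from 0.255, against Slfn3, to 0.79, against Slfn5, and was 0.56 against Slfn4 and 0.57 against Slfn8. With 6 points these are descriptions only.

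**Figure D3:**
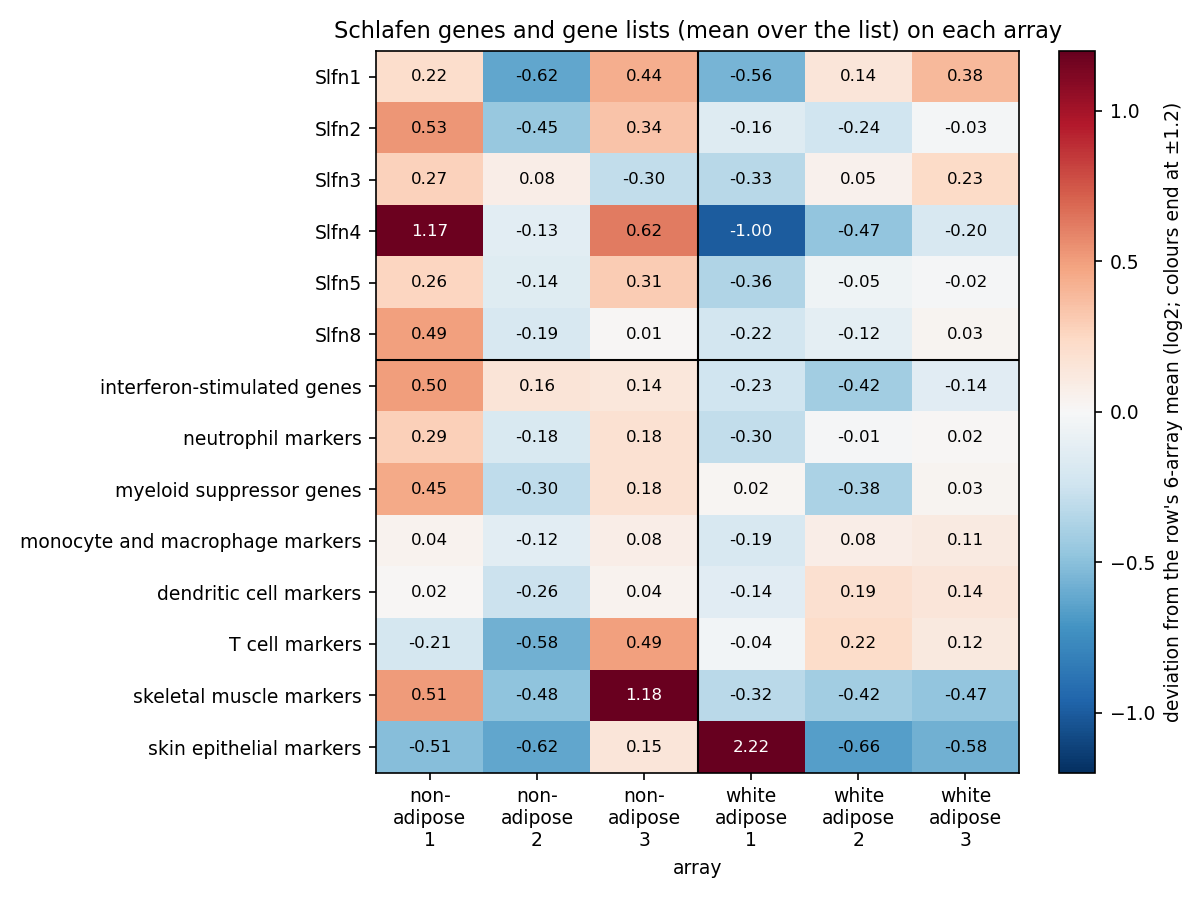
Deviation of each row from its own mean over the 6 arrays (colour and printed number, log2), for the 6 measured members above the line and for the mean of 8 gene lists below it, with the 3 non-adipose arrays on the left. Slfn4 runs from 1.17 in non-adipose replicate 1 to -0.997 in white adipose replicate 1. Skin epithelial markers stand at 2.22 in white adipose replicate 1, beyond the end of the colour scale.

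Genes that interferons switch on, the pathway the family is known for, were lower in the white adipose tumours throughout the list. Of 35 genes listed, 31 had a value, and the mean was lower in all 31. Of these 0 passed the adjusted threshold. At an unadjusted p under 0.05 there were 26 lower, beside 2.13% of all genes, and in 24 the white adipose arrays all lay below the others, beside 3.97% of all genes. The median difference was -0.46. The list was chosen with earlier results of these data known, so these counts and this median are descriptions and no support. The list's mean signal on an array ran from 8.42 to 8.78 in non-adipose and from 7.87 to 8.15 in white adipose tumours, so that the groups did not overlap. The members of the Schlafen family followed this list in part: non-adipose replicate 1 was highest in the list and in 4 of the 6 members, whereas white adipose replicate 2 was lowest for the list and white adipose replicate 1 for Slfn3, Slfn4, Slfn5 and Slfn8.

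Among the interferon-stimulated genes the smallest p-values belonged to Oasl2, Cmpk2, Rsad2 and Rtp4. Cmpk2, a mitochondrial nucleotide kinase, read 9.39, 8.98 and 8.84 in non-adipose replicates 1, 2 and 3 and 8.23, 7.95 and 8.41 in white adipose replicates 1, 2 and 3. Its difference was -0.87 (SE 0.18). Rtp4, a chaperone that damps interferon responses, differed by -0.53 (SE 0.12). In both, the groups did not overlap.

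The interferons and their receptors were divided in direction. Of 19 listed, 18 had a value: 8 were lower, 10 were higher and 0 were at an unadjusted p under 0.05 in either direction, with a median difference of 0.028 that ran from -0.016 to 0.066 with 1 array left out. In 3 of the 18, Ifngr1, Ifna2 and Ifne, the white adipose arrays all lay lower, beside 3.97% of all genes. Ifnb1, the interferon-beta gene, read 4.48, 4.18 and 3.77 in non-adipose replicates 1, 2 and 3 and 3.99, 3.26 and 3.99 in white adipose replicates 1, 2 and 3. The groups overlapped, and the difference was -0.40 (SE 0.26). Tyk2, a kinase bound to the receptor, differed by 0.16 (SE 0.074), and Ifngr1, a subunit of the interferon-gamma receptor, by -0.12 (SE 0.058). Ifna2, an interferon-alpha gene, differed by -0.18 (SE 0.10). The mean signals of Ifna2, Ifnb1 and Ifne were at percentiles 19.17, 12.95 and 30.44 of all genes, so their values may be background.

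Markers of the cells that carry Schlafen genes were compared array by array. Of 15 neutrophil markers, all with a value, 10 were lower and 5 higher in white adipose tumours. Mmp9, 1 of the 15, was at an unadjusted p under 0.05, beside 2.13% of all genes that were lower at that threshold. Only in Mmp9 did the white adipose arrays all lie lower, beside 3.97% of all genes. The median over the list was -0.15. That median turned to 0.032 without white adipose replicate 1 and to 0.013 when non-adipose replicate 1 was dropped, and it was -0.25 and -0.23 when non-adipose replicate 2 and white adipose replicate 2 were. Their mean signal ran from 5.25 to 5.72 in non-adipose and from 5.14 to 5.45 in white adipose tumours. As in Slfn4, non-adipose replicate 1 was highest and white adipose replicate 1 lowest. The defining marker Ly6g was at 3.33 to 3.90 on all arrays. S100a8, an alarmin of neutrophils, read 5.86, 4.31 and 5.50 in non-adipose replicates 1, 2 and 3 and 4.22, 4.89 and 5.005 in white adipose replicates 1, 2 and 3. The mean signals of Ly6g and S100a8 were at percentiles 10.55 and 29.41 of all genes, so their values may be background. Mmp9 differed from the list's mean in its order of arrays. It read 8.07, 8.82 and 8.47 in non-adipose replicates 1, 2 and 3 and 7.92, 7.76 and 7.54 in white adipose replicates 1, 2 and 3. The part of neutrophil markers in the difference of Slfn4 was not tested.

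Genes of suppressor-type myeloid cells, a setting in which Slfn4 has been studied, were also followed. Of 10 measured, 8 were lower and 2 higher, 0 at an unadjusted p under 0.05, with a median of -0.24 and group ranges of 7.04 to 7.80 and 6.96 to 7.38. Dropping white adipose replicate 2 took the median to -0.051, and dropping non-adipose replicate 1 took it to -0.056, whereas dropping non-adipose replicate 2 or white adipose replicate 1 gave -0.37 and -0.38. Nos2, which makes nitric oxide, read 7.98, 6.56 and 7.42 in non-adipose replicates 1, 2 and 3 and 6.74, 6.38 and 6.96 in white adipose replicates 1, 2 and 3. Its arrays ran high and low in the non-adipose group as those of Slfn2 and Slfn4 did, and its difference was -0.63 (SE 0.36). Monocyte and macrophage markers had a median difference of 0.015, from -0.060 to 0.073 with 1 array left out, with 6 of 14 lower and 8 higher. In 2 of the 14 the white adipose arrays all lay lower, beside 3.97% of all genes: Itgam, an integrin of myeloid cells, at -0.22 (SE 0.073) and Cd68, a macrophage lysosomal protein, at -0.14 (SE 0.080). Itgam alone of the 14 was at an unadjusted p under 0.05, beside 2.13% of all genes that were lower at that threshold. Plac8 was at 0.80 (SE 0.40).

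T cell and dendritic cell markers mostly had higher means in the white adipose tumours, where 50.3% of all genes had a lower mean. Of the 11 T cell markers with a value, 10 were higher and 1 lower in white adipose tumours, 0 at an unadjusted p under 0.05, with a median of 0.17. The T cell median depended on non-adipose arrays, being -0.039 when replicate 2 of that group was dropped and 0.44 when replicate 3 was. The mean signal of the T cell markers ran from 5.60 to 6.67 in non-adipose and from 6.15 to 6.40 in white adipose tumours. It was lowest in non-adipose replicate 2, where Slfn1 and Slfn2 were also lowest. That array was not particular to T cell markers: the means of dendritic cell, natural killer cell and skeletal muscle markers were lowest there too. Dendritic cell markers had 8 of 9 higher and a median of 0.16, from 0.031 to 0.25 with 1 array left out. Natural killer cell markers had 4 of 8 lower and a median of 0.046, from -0.049 to 0.095. In 1 of the 8, Eomes, the white adipose arrays all lay lower, beside 3.97% of all genes. Eomes differed by -0.35 (SE 0.099) and was at an unadjusted p under 0.05, beside 2.13% of all genes that were lower at that threshold. Its mean signal was at percentile 29.51 of all genes, so its values may be background. Klrk1 went the other way, at 0.44 (SE 0.31), and its groups overlapped. B cell markers had 3 of 5 lower and a median of -0.15, from -0.22 to -0.047. The part of these cells in the values of Slfn1 and Slfn2 was not tested.

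By a rule on likeness over the 6 arrays, the genes nearest to Slfn4 were Zbp1 (r = 0.98), Rcl1, Samhd1, Ccl4 and Ifih1 (each r = 0.97). They were taken from 2198 genes with a mean signal above the median and a range of at least 0.5, and 29 of these had r above 0.9. Zbp1 and Ifih1 are sensors of foreign nucleic acid, Samhd1 breaks down deoxynucleotides, Ccl4 is a chemokine and Rcl1 acts in ribosome assembly. The genes nearest to Slfn1, the only other member whose range reached 1, were Sorl1, Bcl2a1a, Ccl17, Gbgt1 and Pik3ap1 (each r = 0.99), and 72 genes had r above 0.9. Bcl2a1a has close copies, so its value is uncertain. All these arrays are shared between the genes compared.

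The other lists cover the remaining cell types of such a tumour, and some of them show arrays that stand apart. Krt8, a keratin of simple epithelium, read 9.46 to 10.04. The defining gut epithelial genes Epcam, Cdx2, Vil1 and Cdh17 had mean signals at percentiles 29.1, 38.9, 23.3 and 27.0 among all genes, and Muc2 of the goblet cells stood at 52.0. Levels of different probe sets are not comparable and no detection call was made, so these percentiles do not show whether a gene was expressed. In the list of intestinal differentiation genes 10 of 13 were lower, with a median of -0.023, from -0.063 to -0.0049 with 1 array left out. Epithelial markers had 0 of 10 lower, beside 50.3% of all genes with a lower mean, and all 10 were higher. Their median of 0.12 ran from 0.039 to 0.23 with 1 array left out. The list averaged 6.88 in white adipose replicate 1 and 6.35 to 6.55 on the other arrays, and without that array its median was 0.054. Cdh1 read 7.95 on that array and 6.83 and 6.60 in white adipose replicates 2 and 3, beside a non-adipose mean of 7.10. Adipoq, the defining gene of fat cells, was at percentile 15.6, and adipocyte markers had a median difference of 0.028, from 0.00082 to 0.068, with 2 of 9 lower. Fibroblast markers had 4 of 9 lower and a median of 0.13, which turned to -0.041 when white adipose replicate 1 was dropped. In 1 of the 9, Fap at -0.25 (SE 0.11), the white adipose arrays all lay lower, beside 3.97% of all genes. Skin epithelial markers averaged 8.19 in white adipose replicate 1 and 5.32 to 6.12 on the other arrays, and all 8 were higher in white adipose tumours, with a median of 0.33. Without that array the skin median turned to -0.21. Skeletal muscle markers had 9 of 10 lower and a median of -0.66, from -1.06 to -0.42 with 1 array left out. In 1 of the 10, Ckm at -0.52 (SE 0.18), the white adipose arrays all lay lower, beside 3.97% of all genes. Ckm was also the 1 muscle marker at an unadjusted p under 0.05, beside 2.13% of all genes that were lower at that threshold. The muscle list averaged 6.20 and 6.88 in non-adipose replicates 1 and 3 and 5.21 to 5.37 on the other arrays. The arrays highest in muscle markers were thus also the 2 highest in Slfn4, and the array highest in skin markers was the lowest in Slfn4. Their part was not tested. The Slfn4 difference was -0.89 with the skin-marker array left out, and -0.80 and -1.08 with non-adipose replicates 1 and 3 left out in turn.

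**Figure D4:**
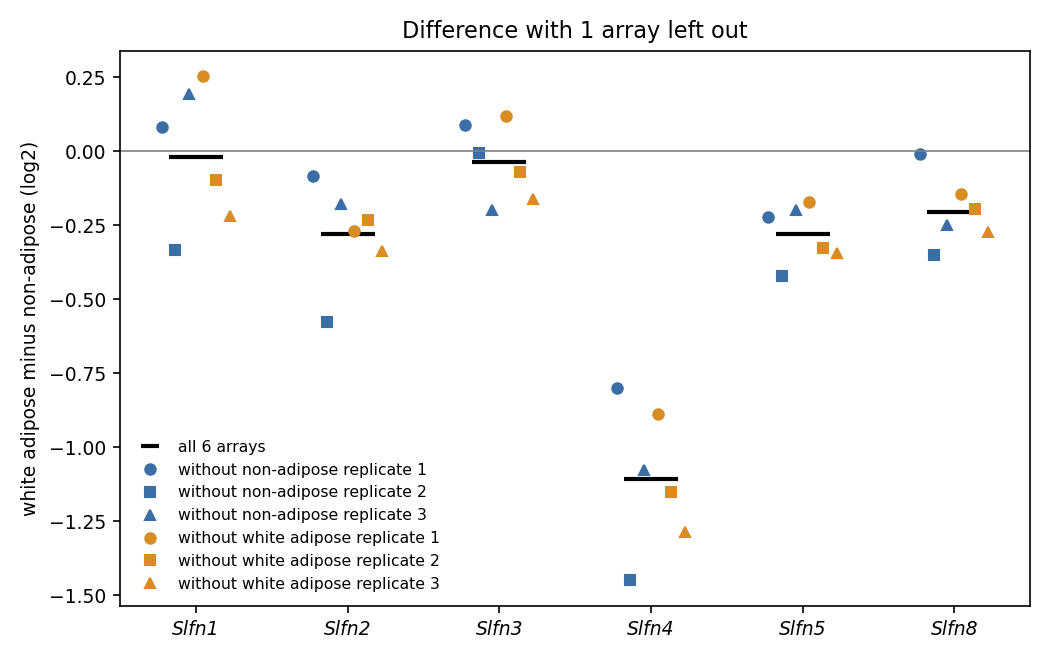
Log2 difference of white adipose minus non-adipose (vertical axis) for each measured member with all 6 arrays (black bar) and with 1 array left out (blue for a non-adipose array, orange for a white adipose array, the marker shape giving the replicate). Slfn4 stays between -1.45 and -0.80, whereas Slfn1 and Slfn3 lie on both sides of 0.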

How the data were processed

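The authors deposited 1 table of 41345 probe sets on 6 arrays, taken as log2 signals because values ran from 0.973 to 13.6. Per the labels' protocols, RNA was amplified and labelled with biotin (WT PLUS kit). The submitters' processing notes name Affymetrix Expression Console; how it corrected, summarised and normalized the signals is not stated there. No detection calls or scan dates were used, so low values may be background and batches were not tested. The number of arrays limits the precision.

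Of the probe sets, 23521 had exactly 1 symbol in the platform annotation, 1814 several and 16010 none. White adipose minus non-adipose was estimated per gene by lmFit and eBayes of limma 3.58.1 (R 4.3.3), with Benjamini-Hochberg adjustment over all 22180 genes, and the script was tested on simulated data. Standard errors and intervals are limma's. Promoters came from RefSeq and were aligned with Biopython 1.88.

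Members and lists were chosen with earlier results of these data known. Genes named were the members and their relatives, up to 4 genes with the smallest p of a list, defining markers, and the 5 genes most like a member whose range reached 1. Alternatives left out each array, blocked on the replicate number, or changed the normalization, filter, weights, variance model or probe-set rule.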

Additional observations from a re-analysis of the deposited data

How the results depend on the processing

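In every alternative run limma called 0 genes at an adjusted p of 0.05, and all 6 measured members kept their main direction in 9 of the 13 alternatives. The number of members with a lower mean in white adipose tumours was 4 to 6 with 1 array left out and 4 with array weights. Slfn1 turned to 0.083 and 0.19 when non-adipose replicates 1 and 3 were left out, to 0.25 when white adipose replicate 1 was and to 0.16 with array weights. Slfn3 turned to 0.089 when non-adipose replicate 1 was left out, to 0.12 when white adipose replicate 1 was and to 0.040 with array weights. The median over the members ran from -0.39 to -0.048 with 1 array left out and from -0.25 to -0.20 otherwise. The number of genes at an unadjusted p under 0.05, 841, became 1800 without white adipose replicate 1, 1621 with array weights and 512 when only genes above the median signal were tested. Fewer genes entered the last of these fits, so its count cannot be read as a fall from 841. The causes of these changes were not tested.

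Deviations of same-numbered arrays from their group means correlated at 0.14 for replicate 1 and at 0.064 and 0.064 for the others. Only replicate 1 lay above the threshold of 0.1 set for this check. Whether the replicate numbers pair the arrays is therefore not settled by it. With the replicate block, 0 genes were called, all 6 members were lower and their median stayed at -0.24, with 1081 genes at an unadjusted p under 0.05.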

Other observations

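All 6 measured members varied more between the non-adipose tumours than between the white adipose ones, beside 47.1% of all genes with the larger SD in the non-adipose group. The SD of Slfn2 was 0.52 in non-adipose and 0.11 in white adipose tumours, and that of Slfn8 0.35 and 0.13, whereas in Slfn3 the SDs were close, 0.29 and 0.28. With 3 arrays in a group this is a description, and the difference in spread was not tested. The probe set shared by Slfn5 and its antisense gene Slfn5os read 5.18, 4.64 and 4.95 in non-adipose replicates 1, 2 and 3 and 4.80, 4.89 and 4.83 in white adipose replicates 1, 2 and 3, and was again widest in the non-adipose group.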
